A study of Mus musculus with 24 samples.

Results

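The BCL2 family decides whether the mitochondrial outer membrane stays intact or is opened to release cytochrome c. Bcl2, Bcl2l1 (the gene of Bcl-xL) and Mcl1 are anti-apoptotic: their proteins hold the other members in a groove on their surface. Bax and Bak1 are the effectors that form the pores. Bbc3 (PUMA), Pmaip1 (NOXA), Bid, Bcl2l11 (BIM) and Bad are BH3-only members, which occupy that groove or engage Bax and Bak1 directly. In the heart, where adult cardiomyocytes are rarely replaced, loss of Mcl1 or of Bcl-xL in mice is known to harm heart muscle. Bax, Bbc3 and Pmaip1 are textbook targets of p53, the transcription factor that is stabilised after DNA damage, and Bcl2l11 and Bbc3 are known targets of FoxO factors.

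This family was chosen with earlier results of these data known. Its 10 genes were found by the gene name printed for each probe in the scanner files. They took up 14 of the 55681 probes of the array and 10 of its 34844 gene names, with 2 probes each for Bcl2l1, Mcl1, Bcl2l11 and Bad and 1 probe for each other member. All 14 probes were kept at 16 h and 12 at 72 h, where Pmaip1 and the second Bcl2l11 probe were not kept, so 9 members were measured there. They were set apart as 3 anti-apoptotic members and 7 pro-apoptotic members (2 effectors and 5 BH3-only genes).

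RNA came from cardiomyocytes isolated from hearts on a Langendorff apparatus, and each of 24 Agilent 1-colour arrays carried the Cy3-labelled RNA of 1 sample. The 4 groups at 16 h were Top2b-/- mice (cardiac deletion of Top2b, the topoisomerase that doxorubicin traps on DNA in these cells) 16 h after intraperitoneal doxorubicin at 25 mg/kg, Top2b-/- mice 16 h after PBS, wild-type (WT) mice after doxorubicin and WT mice after PBS. The same 4 groups were taken at 72 h, with 3 arrays per group. All mice were labelled as males of 6 weeks on a 129SvEv/C57BL/6 background, and the sources used here do not give the Cre driver of the deletion. The labels do not tell whether replicate arrays came from different mice, so every p-value below reflects spread that may be technical. A level below is the log2 processed signal minus the 75th percentile of its array, so 0 is the 75th percentile; levels of different genes are not compared. A difference is given in log2 with its standard error (SE), and it passed the test when limma's p-value, adjusted by Benjamini-Hochberg over all genes kept at that time, was under 0.05.

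Top2b itself lay at 2.54 to 3.34 on the 6 Top2b-deleted arrays of 16 h, against 4.03 to 4.39 on the 6 WT arrays, and at 2.13 to 3.07 against 3.25 to 3.65 at 72 h, so no array went against the genotype of its title. The genotype characteristic of 4 arrays of 16 h differs from the title, and the title was used. All 12 cardiomyocyte markers were well above background on every array. Although all mice were labelled male, the Y-linked transcript Ddx3y was well above background on only 7 of 24 arrays: at 16 h on 1 Top2b-deleted doxorubicin array, none of Top2b-deleted PBS, 1 of WT doxorubicin and all 3 of WT PBS. By 1 probe, Xist, a transcript of female cells, was well above background on every array without Ddx3y and no array with it. A probe for Esr1, whose product is part of inducible Cre proteins, read 5.04 to 7.10 on all 12 Top2b-deleted arrays, but also 8.41 and 8.58 on 2 WT PBS arrays and 6.62 on 1 WT doxorubicin array of 72 h. It was well above background, at 0.60 and 1.05, on 2 WT doxorubicin arrays of 16 h, and at -2.06 on another of 72 h. At 16 h all WT arrays and 2 Top2b-deleted PBS arrays shared a slide, and the other 4 Top2b-deleted arrays were on another, so the genotypes after doxorubicin never shared a slide. The times were on different slides and are described apart.

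The probes below lie inside protein-coding sequence, and are shown because the results for Bcl2, Bcl2l1 and Bcl2l11 rest on what they can bind. Their positions are those of the scanner files, on mm9. The Bcl2 probe (chr1:108608970-108609029, minus strand) reads the BH1 region. The second Bcl2l1 probe (chr2:152655185-152655244, minus strand) reads the stretch between BH1 and BH2, which Bcl-xL has and the short, pro-apoptotic splice form Bcl-xS lacks. The Bcl2l11 probe spans chr2:127972893-127983988 on the plus strand, an interval of 11096 bases for a probe of 60, so it crosses a splice junction; capitals mark the bases of its BH3 core. The brightest Bcl2l1 probe lies further along the gene, at chr2:152606404-152606463.
Bcl2: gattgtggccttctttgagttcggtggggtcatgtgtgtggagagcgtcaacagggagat
Bcl2l1: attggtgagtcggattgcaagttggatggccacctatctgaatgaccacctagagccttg
Bcl2l11: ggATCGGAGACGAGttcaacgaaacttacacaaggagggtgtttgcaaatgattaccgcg

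The promoter windows shown were chosen because they hold a searched motif; they run from 250 bases before to 50 after a start, and come from RefSeq on GRCm38.p6. Of the 10 members, 9 had a window in that table, 15 windows in all, and none is given for Pmaip1. The windows were searched on both strands for the p53 half-site, for pairs of such half-sites with up to 13 bases between them and up to 2 mismatches, for the FoxO motif TGTTTAC and for the STAT motif TTCNNNGAA. The Bax window (chr7:45466849-45467148, minus strand) held an exact p53 half-site and 2 overlapping pairs that share it, the whole lying between positions -216 and -181 from the start. An exact half-site occurs in 8.36% of all 32851 windows and such a pair in 2.12%. No other member's window held either. Bbc3 window 1 (chr7:16309333-16309632, plus strand) held adjacent half-sites with 3 mismatches, at positions -97 to -78; this looser search, which 0.572% of windows meet, was added after that window had been seen. Bbc3 window 2 (chr7:16310011-16310310) and Bcl2l11 window 1 (chr2:128125788-128126087, both plus strand) held the FoxO motif, as 3.65% of windows do. No window of a member held the STAT motif, against 8.30% of all windows. A match describes these letters and is no evidence that a factor binds there. Capitals mark the matches.
Bax: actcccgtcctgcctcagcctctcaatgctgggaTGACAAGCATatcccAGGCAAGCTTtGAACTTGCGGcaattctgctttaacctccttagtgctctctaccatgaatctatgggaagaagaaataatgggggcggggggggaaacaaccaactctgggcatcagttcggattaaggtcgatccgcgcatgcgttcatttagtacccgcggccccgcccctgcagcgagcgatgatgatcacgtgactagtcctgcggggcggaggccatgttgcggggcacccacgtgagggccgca
Bbc3 window 1: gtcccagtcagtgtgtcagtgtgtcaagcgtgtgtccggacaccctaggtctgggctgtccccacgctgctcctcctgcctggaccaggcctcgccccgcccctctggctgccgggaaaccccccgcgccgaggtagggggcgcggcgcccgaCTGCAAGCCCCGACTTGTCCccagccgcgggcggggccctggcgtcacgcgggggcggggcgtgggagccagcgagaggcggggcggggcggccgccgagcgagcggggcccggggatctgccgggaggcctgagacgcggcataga
Bbc3 window 2: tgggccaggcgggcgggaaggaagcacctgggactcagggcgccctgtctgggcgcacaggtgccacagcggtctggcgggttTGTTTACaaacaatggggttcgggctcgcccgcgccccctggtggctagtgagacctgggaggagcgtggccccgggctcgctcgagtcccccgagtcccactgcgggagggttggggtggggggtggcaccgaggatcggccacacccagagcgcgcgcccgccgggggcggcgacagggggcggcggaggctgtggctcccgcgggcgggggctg
Bcl2l11: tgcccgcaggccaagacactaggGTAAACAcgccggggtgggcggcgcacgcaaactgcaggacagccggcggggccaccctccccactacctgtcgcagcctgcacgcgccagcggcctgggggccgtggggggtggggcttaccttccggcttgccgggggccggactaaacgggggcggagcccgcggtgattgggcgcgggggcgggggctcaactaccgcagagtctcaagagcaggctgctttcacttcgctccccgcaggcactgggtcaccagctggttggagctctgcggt

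At 16 h, members on both sides of the family were higher after doxorubicin in WT cardiomyocytes. Of the 10 members, 6 were higher after doxorubicin than after PBS and none was lower, where 27.8% of all genes passed the test, 13.7% higher and 14.1% lower. The higher members were 2 of the 3 anti-apoptotic genes (Bcl2l1 and Mcl1) and 4 of the 7 pro-apoptotic genes (Bax, Bbc3, Pmaip1 and Bcl2l11). The median difference was 0.53 for the anti-apoptotic and 1.20 for the pro-apoptotic members, beside -0.02 for all genes. Pmaip1 is among the 6 although it passed the probe filter only through WT doxorubicin, the group where it is high, so it had to differ and its call adds no support. The PBS arrays of this comparison all had Y-linked transcripts, and of the doxorubicin arrays only replicate 1 did.

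Bax, the effector, read 4.11, 4.16 and 4.06 in WT doxorubicin samples, against 2.58, 2.47 and 2.59 in WT PBS samples. The groups were far apart beside the spread between replicates, and Bax was 2.95-fold higher (1.56 ± 0.10, adjusted p = 1.64e-05). Bak1, the other effector, did not pass: it ranged over 1.99 to 2.72 after doxorubicin and 1.80 to 2.55 after PBS, a difference of 0.08 ± 0.22 with a 95% interval of -0.40 to 0.56. Of the effectors, Bax was thus higher on every doxorubicin array, and the Bak1 groups overlapped.

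Among the BH3-only genes, Bbc3 read 2.96, 2.18 and 1.54 in WT doxorubicin samples, against -0.15, -0.21 and -0.22 in WT PBS samples. Every doxorubicin value lay far above the PBS values, and the rise was 5.34-fold (2.42 ± 0.27, adjusted p = 0.00024). Pmaip1 read 1.85, -0.32 and -2.08 after doxorubicin and was not well above background on any PBS array. Set against the dimmest signals that were well above background, Pmaip1 was at least 10.1-fold higher by the processed signal. Its measured means were -0.18 after doxorubicin and -5.53 after PBS. The 3 doxorubicin readings were themselves widely spread, and with normexp background correction the fitted difference was 1.91 in place of 5.35 on the log2 scale. No p is given for Pmaip1, for the reason above. Bcl2l11, which encodes BIM, read -0.30, -1.01 and -1.56 after doxorubicin, against -1.96, -2.84 and -1.69 after PBS. The groups did not overlap but came close, and the rise was 2.30-fold (1.20 ± 0.33, adjusted p = 0.0209). It was lost without WT doxorubicin replicate 1 (0.87 ± 0.30, adjusted p = 0.0501) and without WT PBS replicate 2 (0.86 ± 0.30, adjusted p = 0.0726).

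Bid and Bad, the BH3-only members known for control by caspase cleavage and by phosphorylation, did not pass. Bid ranged over -2.71 to -1.44 after doxorubicin and -2.89 to -2.34 after PBS (0.41 ± 0.31, adjusted p = 0.356). Bad differed by 0.06 ± 0.16, with an interval of -0.29 to 0.41. With the Y-linked transcripts as a covariate, Bid passed (1.01 ± 0.21, adjusted p = 0.00630). WT doxorubicin replicate 1, the array of that group with Y-linked transcripts, had the highest reading of the group for Mcl1, Bak1, Bbc3, Pmaip1, Bid and Bcl2l11.

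Of the anti-apoptotic genes, Bcl2l1 read 6.28, 6.70 and 6.54 in WT doxorubicin samples, against 3.98, 4.46 and 4.20 in WT PBS samples. All doxorubicin values were above all PBS values by more than any spread within a group, and Bcl2l1 was 4.91-fold higher (2.30 ± 0.24, adjusted p = 0.000142). Its coding probe read 0.50, 1.11 and 0.62 against -1.42, -0.92 and -1.54, a difference of 2.04 ± 0.30 (adjusted p over all probes = 0.000933), so the rise was also seen where only the long form has sequence. Mcl1 read 6.54, 5.99 and 6.02 after doxorubicin, against 5.65, 5.53 and 5.77 after PBS. This was the smallest of the 6 rises, 1.45-fold (0.53 ± 0.15, adjusted p = 0.0253), and it was lost without WT PBS replicate 1 (adjusted p = 0.0628) or replicate 2 (adjusted p = 0.0905). The second Mcl1 probe showed a larger rise, 1.25 ± 0.24 (adjusted p over all probes = 0.00353). Bcl2 read -2.21, -2.06 and -2.10 after doxorubicin, against -1.63, -1.22 and -1.64 after PBS. Those groups did not overlap, as was so for 36.7% of all genes, but the difference of -0.63 ± 0.29 did not pass (adjusted p = 0.137).

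**Figure D1:**
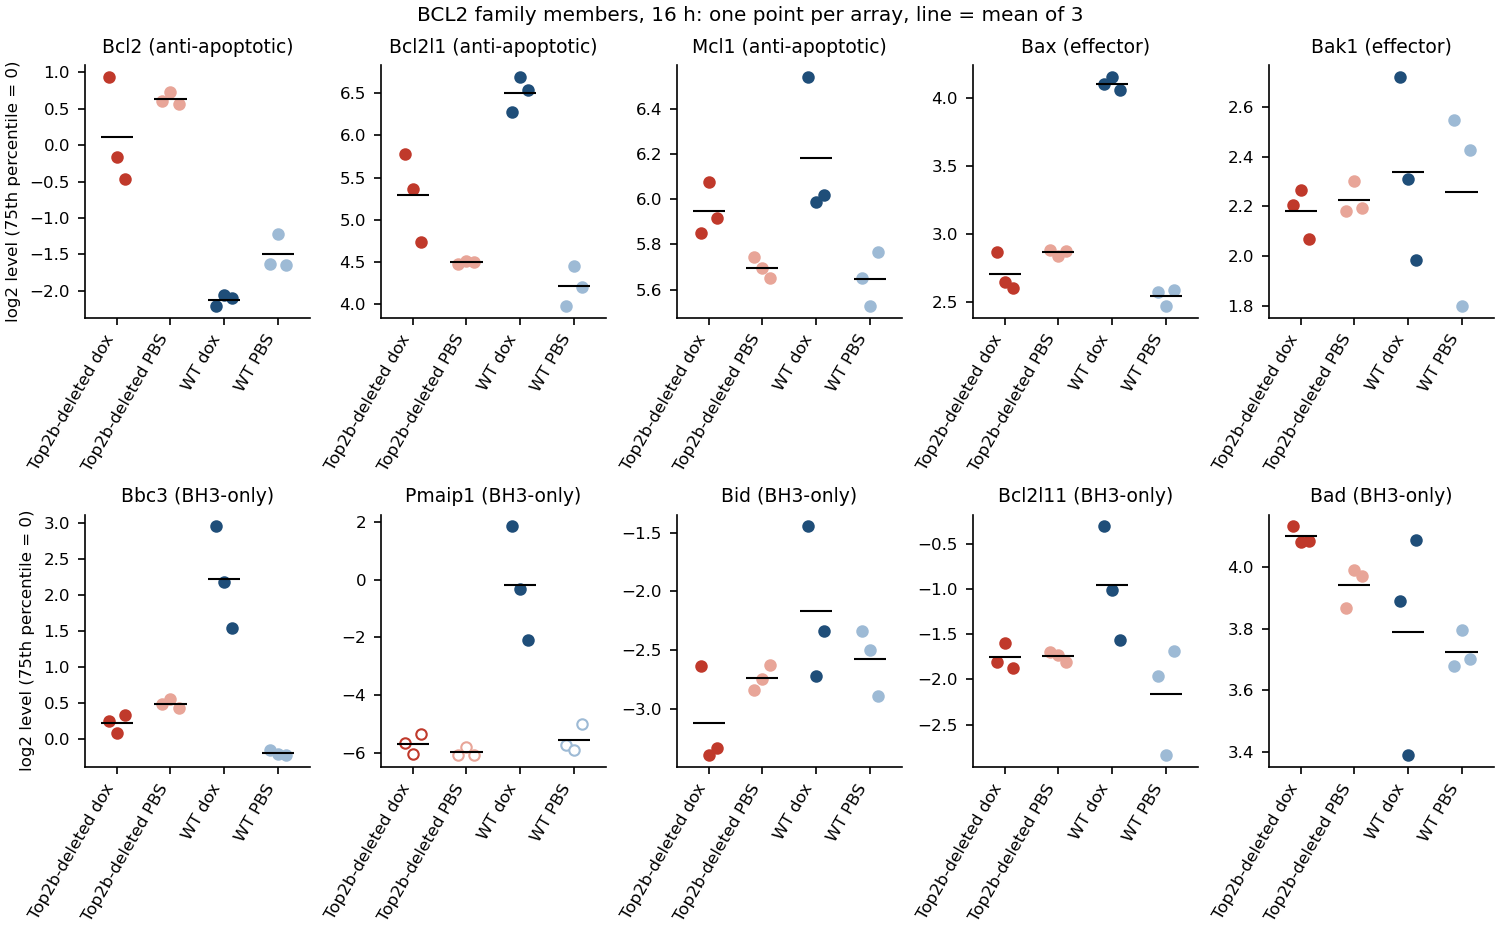
Level of each member on every array of 16 h (y axis, log2, 75th percentile of the array at 0), with the 4 groups on the x axis; points are arrays, lines are means of 3, and open points were not well above background. WT doxorubicin points stand above the other 3 groups for Bax, Bbc3, Pmaip1 and Bcl2l1, and the Top2b-deleted points stand above WT for Bcl2.

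In Top2b-deleted cardiomyocytes at 16 h, no member passed the test for doxorubicin against PBS, and neither did any of the 18751 genes tested with limma (0% called; at an unadjusted p under 0.05 there were 791 genes, 1 of them a member). Bax read 2.87, 2.65 and 2.60 after doxorubicin, against 2.88, 2.84 and 2.88 after PBS. The groups overlapped and the 95% interval of the difference was -0.38 to 0.07, which leaves out the 1.56 measured in WT. Bbc3 read 0.25, 0.09 and 0.34 against 0.49, 0.55 and 0.43, with an interval of -0.87 to 0.34. Pmaip1 was not well above background on any of these 6 arrays. Bcl2l1 was the member with an unadjusted p under 0.05: it read 5.78, 5.37 and 4.73 after doxorubicin, against 4.48 to 4.51 after PBS. By its brightest probe all doxorubicin values lay above all PBS values, a difference of 0.80 ± 0.24 with an interval of 0.27 to 1.32. Its coding probe ranged over -1.21 to 0.06 after doxorubicin and -1.22 to -1.04 after PBS, so by that probe the groups overlapped. By the brightest probe of each, the groups did not overlap for Bcl2l1, Mcl1 and Bad (higher) and Bbc3 (lower), 4 of 10 members beside 17.8% of all genes. Apart from Bax, Bbc3, Pmaip1 and Bcl2l1, the members had differences between -0.53 (Bcl2) and 0.25 (Mcl1). The median was 0.25 for the anti-apoptotic and -0.05 for the pro-apoptotic members, beside 0.01 for all genes.

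The 2 responses were compared directly, as the Top2b-deleted response minus the WT response. Of the 10 members 4 had a lower response in Top2b-deleted samples and none a higher one, where 11.4% of all genes passed, 5.27% lower and 6.17% higher. Bax differed by -1.72 ± 0.14 (adjusted p = 0.000349) and Bbc3 by -2.68 ± 0.38 (adjusted p = 0.00293). Pmaip1, counted among the 4, was kept only through WT doxorubicin and was not well above background in the other 3 groups, so its call adds no support. Bcl2l1 differed by -1.50 ± 0.33 (adjusted p = 0.0199). With slide as a block Bax and Bbc3 still passed, while Bcl2l1 (-1.50 ± 0.43, adjusted p = 0.119) and Pmaip1 did not; 1.99% of all genes passed in that fit. Bcl2l1 was also lost without Top2b-deleted PBS replicate 2 (adjusted p = 0.0524). Bcl2l11 had a difference of -1.21 ± 0.46 that did not pass (adjusted p = 0.116). Its second probe was well above background on all WT doxorubicin arrays, on 1 Top2b-deleted PBS array and on no other array of 16 h, so no size is given for it. For Mcl1 the interval was -0.76 to 0.19 by its brightest probe, and for Bcl2 it was -0.82 to 1.02. The second Mcl1 probe had means of 3.46 after doxorubicin and 3.32 after PBS in Top2b-deleted samples. In WT samples its means were 4.33 and 3.08, so the responses of the genotypes were further apart by that probe.

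**Figure D2:**
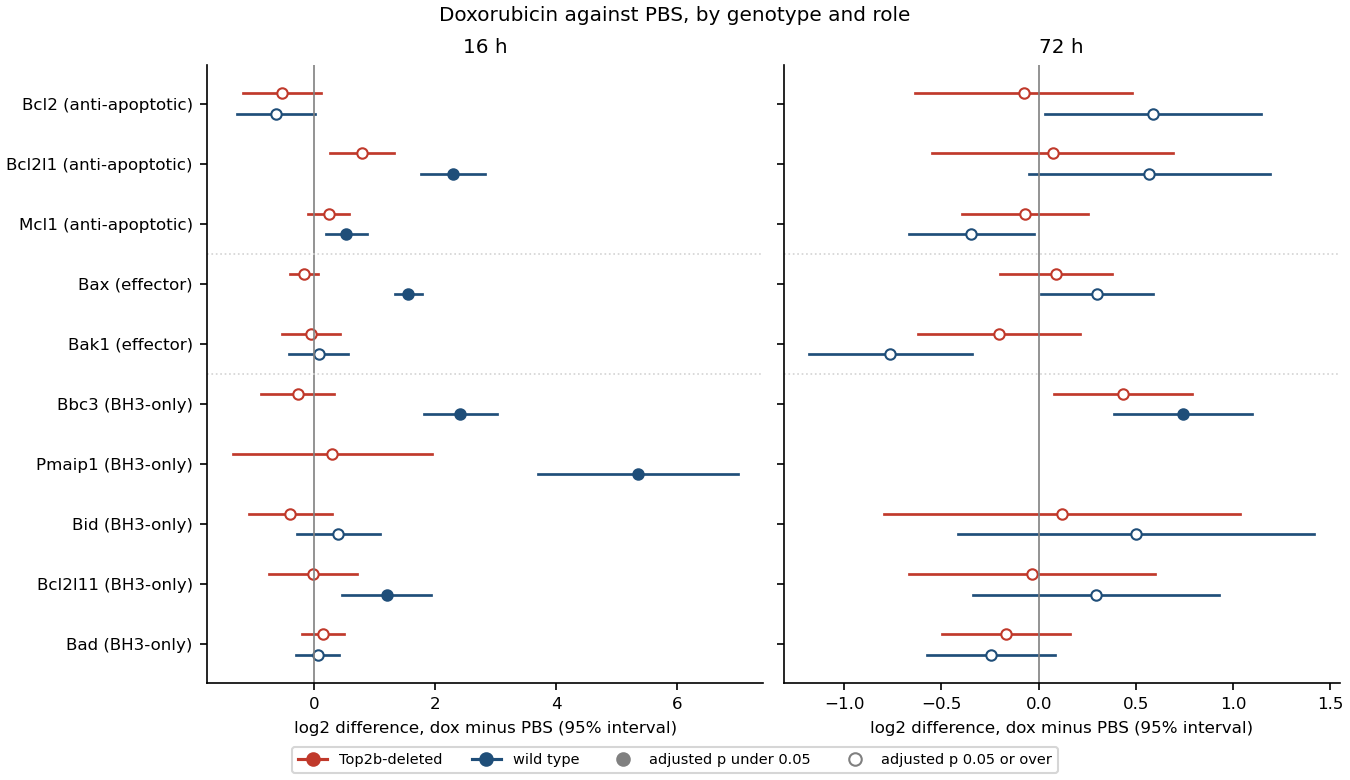
Log2 difference of doxorubicin minus PBS (x axis) for each member (rows, by role), Top2b-deleted above wild type, with 95% intervals; filled points have an adjusted p under 0.05. At 16 h the filled points are the 6 WT values from 0.53 to 5.35, of which Pmaip1 (5.35) is set against readings not well above background, and at 72 h only WT Bbc3 at 0.74; Pmaip1 has no value at 72 h.

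Compared directly after doxorubicin at 16 h, Top2b-deleted samples had 5 members lower and 1 higher than WT samples, where 31.3% of all genes passed, 14.4% lower and 16.9% higher. The lower members were Bax (-1.40 ± 0.10, adjusted p = 1.94e-05), Bbc3 (-2.00 ± 0.27, adjusted p = 0.000581), Bcl2l1 (-1.21 ± 0.24, adjusted p = 0.00392), Pmaip1 and Bid. By the processed signal, Pmaip1 was at least 14.2-fold higher in WT doxorubicin samples, the group through which it was kept, so its call adds no support. Bid read -2.63, -3.39 and -3.33 in Top2b-deleted samples, against -1.44, -2.71 and -2.33 in WT samples, groups that overlapped (-0.95 ± 0.31, adjusted p = 0.0390). Bid was called in 13 of 28 alternatives and lost in 15, 7 of which left out 1 array, among them WT doxorubicin replicate 1 (-0.59 ± 0.25, adjusted p = 0.0954). With slide as a block, where the genotypes are linked only through the Top2b-deleted PBS arrays, Bax passed alone (-1.42 ± 0.20, adjusted p = 0.0111), beside 2.15% of all genes. In that fit Bcl2 was at 2.32 ± 0.55, Bcl2l1 at -1.22 ± 0.45, Bbc3 at -1.90 ± 0.52 and Bid at -1.12 ± 0.58, with adjusted p, in that order, of 0.0695, 0.206, 0.0945 and 0.367.

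Bcl2 was the member that differed by genotype without treatment. At 16 h after PBS it read 0.60, 0.72 and 0.57 in Top2b-deleted samples, against -1.63, -1.22 and -1.64 in WT samples. The groups were widely separated, a 4.37-fold higher level in Top2b-deleted samples (2.13 ± 0.29, adjusted p = 0.00169). No other of the 10 members passed, where 12.5% of all genes did (6.77% higher and 5.68% lower), with Bax at 0.32 ± 0.10 (adjusted p = 0.0660) and Bbc3 at 0.68 ± 0.27 (adjusted p = 0.129) as the nearest. After doxorubicin Bcl2 read 0.94, -0.16 and -0.46 in Top2b-deleted samples, against -2.21, -2.06 and -2.10 in WT samples, again with no overlap and 4.69-fold higher (2.23 ± 0.29, adjusted p = 0.000471). These doxorubicin groups never shared a slide, and the call was lost with slide as a block (adjusted p = 0.0695). Within the slide that held both genotypes, over 2 Top2b-deleted and 3 WT PBS samples, the PBS difference was 2.16 ± 0.18 (adjusted p = 0.00143).

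Several other measurements are set beside this Bcl2 difference, some moving with it and some not, and their part in it was not tested. The 3 WT PBS arrays of 16 h all had Y-linked transcripts and the 3 Top2b-deleted PBS arrays had none, so the comparison cannot be told apart from that difference there. The doxorubicin arrays without Y-linked transcripts at 16 h were replicates 2 and 3 of each genotype. Between the genotypes there Bcl2 differed by 1.77 ± 0.14 (adjusted p = 0.00156), but they were on different slides. At 72 h the call of Bcl2 in PBS was lost on arrays without Y-linked transcripts. The Esr1 probe was below background on the 3 WT PBS arrays of 16 h. At 72 h, 2 WT PBS arrays read 8.41 and 8.58 for that probe, and Bcl2 on those arrays was -1.37 and -1.06, beside -1.36 on the array where the probe was below background. Bcl2 is also known to be abundant in lymphocytes. Of 8 lymphocyte markers 5 were well above background on no array of 16 h, and the 3 measured had summed linear levels (75th percentile at 1) of 4.12 to 4.52 in Top2b-deleted PBS samples and 5.11 to 5.27 in WT PBS samples. Fibroblast markers higher in Top2b-deleted than in WT PBS samples of 16 h were Postn (2.82 ± 0.42), Col1a1 (1.68 ± 0.38), Lum (1.36 ± 0.34) and Col3a1 (1.16 ± 0.32). Col1a2, Pdgfra and Dcn did not pass. The summed fibroblast level was 45.3 to 96.8 in Top2b-deleted and 24.1 to 35.7 in WT PBS samples. At 72 h it was 17.2 to 75.5 and 21.5 to 77.0, in that order.

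Set against each other on the same array, the effector Bax and the anti-apoptotic genes gave ratios that depended on which partner was taken. They are given as log2 ratios relative to the mean of the WT PBS arrays of that time, as a description without a test. Bax over Bcl2l1 was lower after doxorubicin in both genotypes at 16 h: -1.25, -1.05 and -0.46 in Top2b-deleted doxorubicin samples, against 0.07, -0.01 and 0.04 in Top2b-deleted PBS samples. In WT it was -0.51, -0.87 and -0.81 after doxorubicin, against 0.27, -0.32 and 0.05 after PBS. By the brightest Bcl2l1 probe, Bcl2l1 thus gained on Bax in both genotypes and the groups did not overlap. By its coding probe, the level of Bcl2l1 itself overlapped between the Top2b-deleted groups.

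Bax over Bcl2 ran the other way in WT, with a mean of 2.19 ± 0.08 after doxorubicin and 0.00 ± 0.30 after PBS (SD, n = 3 each). In Top2b-deleted samples it was below WT under either treatment, at -1.44 ± 0.60 after doxorubicin and -1.81 ± 0.10 after PBS. Between the genotypes after doxorubicin the ratio differed by -3.63 (Top2b-deleted minus WT), which joins lower Bax and higher Bcl2. Bax over Mcl1 was 1.03 ± 0.32 in WT doxorubicin samples and 0.00 ± 0.07 in WT PBS samples, and -0.14 ± 0.23 and 0.27 ± 0.05 in the Top2b-deleted doxorubicin and PBS samples.

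**Figure D3:**
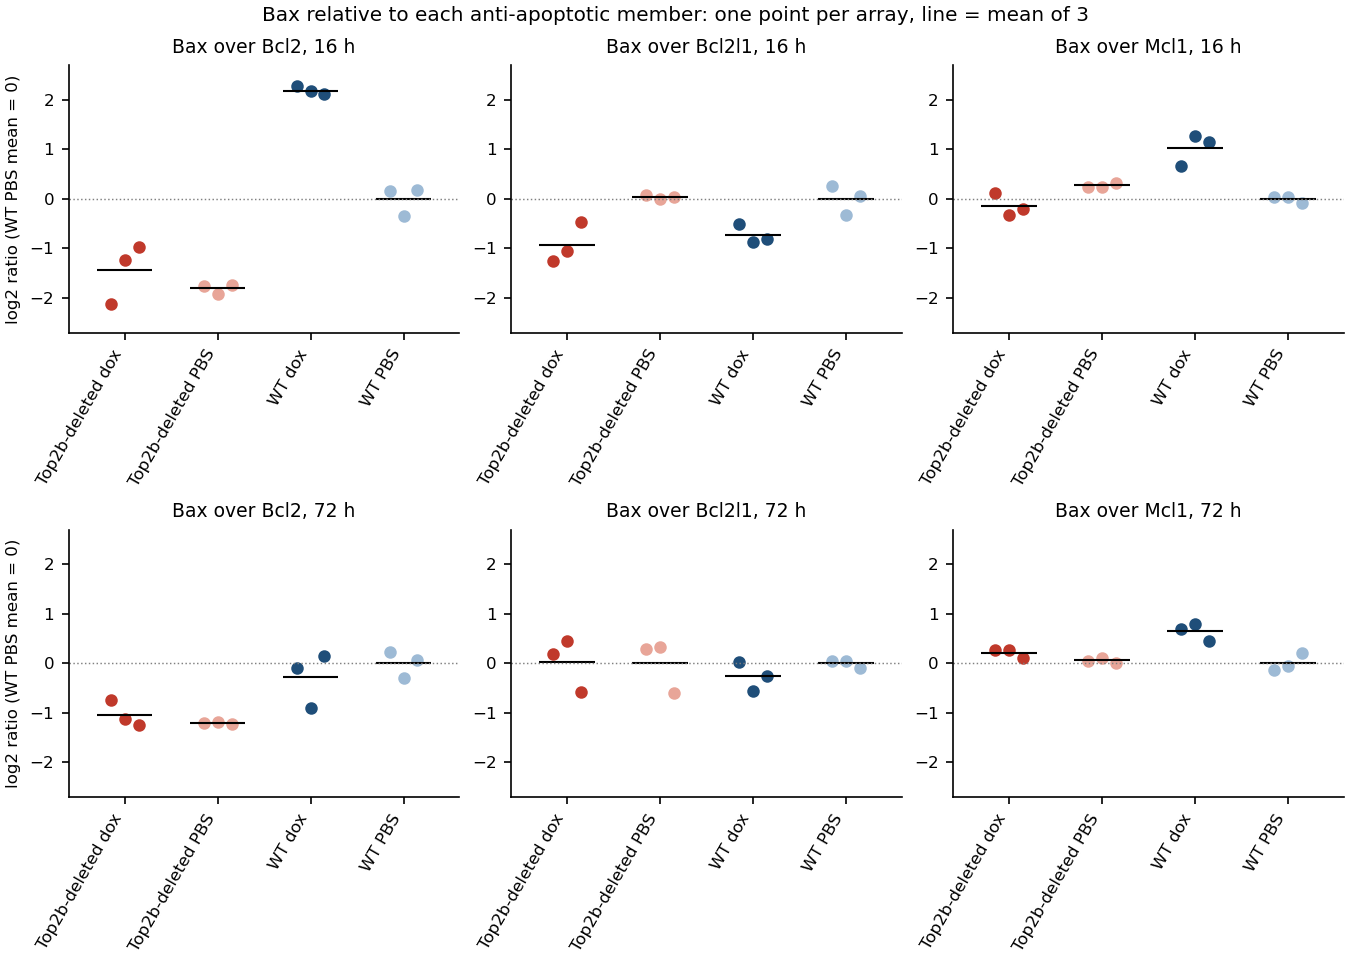
Log2 ratio of Bax over Bcl2, Bcl2l1 and Mcl1 on each array (y axis, mean of WT PBS at that time set to 0), by group (x axis), at 16 h above and 72 h below; lines are means of 3. At 16 h WT doxorubicin arrays sit near 2.19 for Bax over Bcl2 and near -0.73 for Bax over Bcl2l1.

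Where a member had 2 probes, both gave the same direction for WT doxorubicin against PBS at 16 h for Bcl2l1, Mcl1 and Bcl2l11, with unequal sizes for the last 2. The second Bcl2l11 probe, at chr2:127954736-127955417 on mm9, read -1.01, -3.00 and -3.24 in WT doxorubicin samples and was not well above background in WT PBS samples, at least 2.16-fold higher. It was kept only through WT doxorubicin, so it adds no separate support for the rise. The 2 Bad probes differed by 0.06 and -0.02 between WT doxorubicin and PBS samples, and neither passed.

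**Figure D4:**
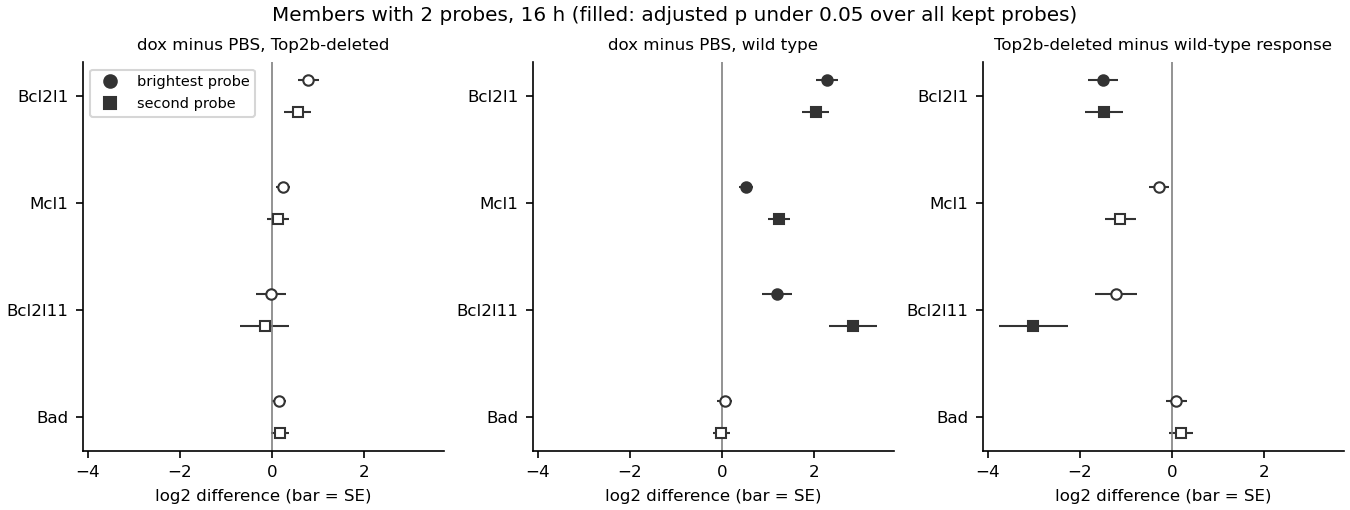
Log2 difference with its SE (x axis) of the brightest and the second probe of the 4 members with 2 probes at 16 h, for doxorubicin minus PBS in Top2b-deleted and WT samples and for the difference between those responses; filled symbols have an adjusted p under 0.05 over all kept probes. Both Bcl2l1 probes lie near 2 in WT, and the Bcl2l11 probes lie at 1.20 and 2.86, the second against readings not well above background.

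Other genes of the pathway were counted by list, and the lists were chosen with earlier results of these data known. The counts stand beside 27.8% of all genes passing in WT doxorubicin against PBS at 16 h, 13.7% higher and 14.1% lower. A count near that share says nothing particular about its list. The genes named with values were picked by how they moved, from those with the smallest adjusted p past the threshold in their list. Of 10 measured relatives outside the 10 members, 1 was higher and 3 lower in WT doxorubicin than in WT PBS samples at 16 h: Bnip3 at 0.74 ± 0.19, and Bik (a BH3-only gene) at -1.40 ± 0.19, Bok (a Bax-like gene) at -1.58 ± 0.27 and Bcl2l13 at -0.52 ± 0.16. Of 7 death receptor genes and adaptors, which act upstream of Bid, 3 were higher and none lower, namely Tnfrsf10b at 2.26 ± 0.24, Fas at 1.95 ± 0.28 and Tnfrsf1a at 1.09 ± 0.35. Of 13 apoptosome and caspase genes 2 were higher and 5 lower, among the lower ones the executioner caspase gene Casp6 (-0.70 ± 0.13). Of 6 inhibitors of apoptosis, 1 was higher, Cflar (0.94 ± 0.22), whose product blocks caspase 8, and none lower.

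Targets of p53 and regulators of the family were counted in the same comparison, where 27.8% of all genes passed, 13.7% higher and 14.1% lower. Of 14 p53 targets outside the family, 12 (Tnfrsf10b is on both lists) were higher and none lower in WT doxorubicin samples of 16 h, with a median of 1.89, among them Phlda3 (3.09 ± 0.23) and Aen (1.50 ± 0.14). In Top2b-deleted samples none of these 14 passed (median 0.07), beside 0% of all genes. Of the 14, 9 had a lower response in Top2b-deleted than in WT samples, beside 5.27% of all genes. Of 17 transcription factors known to act on family genes, 5 were higher and 4 lower in WT, with Myc at 2.65 ± 0.55, Foxo1 at 1.11 ± 0.16, Rela at 0.77 ± 0.11 and Gata4 at -1.03 ± 0.13. Of 11 enzymes that act on the stability or phosphorylation of family proteins, 1 was higher and 2 lower, Pim3 at 1.10 ± 0.16, Akt1 (a kinase of Bad) at -0.79 ± 0.14 and Gsk3b (a kinase of Mcl1) at -0.62 ± 0.16. Of 8 channel and membrane proteins studied beside the family, none was higher and 2 were lower.

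Markers of other cells also moved at 16 h in WT, and their part in the family's changes was not tested. Between WT doxorubicin and PBS samples 27.8% of all genes passed, 13.7% higher and 14.1% lower. Of 10 neutrophil markers 4 were measured and 3 were higher after doxorubicin: S100a9 (4.20 ± 0.72), S100a8 (3.50 ± 0.57) and Ly6g (1.85 ± 0.29). S100a8 was well above background on only 3 of 12 arrays, so it passed the probe filter only through the group where it is high. Its call adds no support. Csf3r, also measured, was at -0.02 ± 0.14. Of the 10 markers 5, Retnlg and Ngp among them, were well above background on no array. The summed level, in which the brightest markers weigh most, was 66.6 to 99.5 after doxorubicin and 80.5 to 82.5 after PBS. Of 7 smooth muscle and pericyte markers 5 were lower, with sums of 28.5 to 35.3 after doxorubicin and 79.8 to 104.2 after PBS. Of 7 fibroblast markers 4 were lower, with sums of 22.0 to 50.3 after doxorubicin and 24.1 to 35.7 after PBS. In such bulk samples, fewer cells of a type and less RNA per cell cannot be told apart.

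At 72 h, Bbc3 was the member still higher after doxorubicin in WT cardiomyocytes. In WT samples 1 of the 9 members measured was higher after doxorubicin and none lower, where 2.69% of all 19672 genes passed (0.946% higher and 1.75% lower), and the median of all genes was -0.08. Bbc3 read 0.07, -0.07 and -0.14 after doxorubicin, against -0.63, -0.95 and -0.78 after PBS. The groups did not overlap and Bbc3 was 1.67-fold higher (0.74 ± 0.16, adjusted p = 0.0436). It missed the threshold in 16 of 26 alternatives, with an adjusted p of up to 0.141 and values of 0.53 to 0.82, among them 10 of the 12 that left out 1 array. In the same comparison 3 of 6 measured neutrophil markers were higher: S100a9 (6.44 ± 0.87), S100a8 (5.68 ± 0.64) and Retnlg (3.45 ± 0.62). S100a8 and Retnlg were each well above background on only 3 of 12 arrays, so their calls add no support. Ly6g, Csf3r and Camp were at 2.32 ± 0.92, -0.11 ± 0.47 and 0.22 ± 0.24 and did not pass. Of the 10 markers 4 were well above background on no array. The summed level, in which the brightest markers weigh most, was 128 to 230.4 after doxorubicin and 104 to 247 after PBS. The part of these markers in the Bbc3 difference was not tested.

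Neither effector passed at 72 h. Bak1 read 1.36, 1.65 and 1.22 in WT doxorubicin samples, against 2.10, 2.26 and 2.16 in WT PBS samples. No value overlapped, as for 25.9% of all genes, yet the difference of -0.76 ± 0.19 did not pass (adjusted p = 0.0577); it passed in 7 of 26 alternatives, one of them the authors' value table (-0.87 ± 0.18, adjusted p = 0.0319). Bax read 2.46, 2.30 and 2.15 after doxorubicin, against 2.12, 1.92 and 1.98 after PBS, a difference of 0.30 ± 0.13 that did not pass (adjusted p = 0.187).

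The anti-apoptotic genes did not pass in WT at 72 h. Bcl2l1 was at 0.57 ± 0.28 by its brightest probe (adjusted p = 0.241), and its coding probe read 0.23, 0.62 and -0.28 in WT doxorubicin samples, against -1.09 to -0.74 in WT PBS samples. The coding probe passed in the fit over all probes (1.13 ± 0.25, adjusted p = 0.0491). Bcl2 was at 0.59 ± 0.25 and Mcl1 at -0.35 ± 0.15, with adjusted p of 0.184 and 0.178. Bid, Bcl2l11 and Bad were at 0.50 ± 0.41, 0.30 ± 0.29 and -0.25 ± 0.15, and none passed.

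In Top2b-deleted samples at 72 h no member and no gene passed for doxorubicin against PBS (0% called by limma; 429 genes at an unadjusted p under 0.05, 1 of them a member, Bbc3 at 0.43 ± 0.16). The difference between the responses likewise had no member and no gene past the threshold (1389 genes and 0 members at an unadjusted p under 0.05). For Bax its interval was -0.62 to 0.20 and for Bbc3 -0.81 to 0.19. Pmaip1 was well above background on 1 of the 12 arrays of 72 h, Top2b-deleted doxorubicin replicate 4, at -1.96.

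Between the genotypes at 72 h, Bcl2 was again higher in Top2b-deleted PBS samples, at -0.01, -0.07 and -0.03, against -1.37, -1.06 and -1.36 in WT PBS samples. The groups were apart by nearly 1 on the log2 scale and Bcl2 was 2.34-fold higher (1.23 ± 0.25, adjusted p = 0.0332), the 1 member called of 9, beside 2.15% of all genes (1.07% higher and 1.08% lower). It missed the threshold in 11 of 26 alternatives, with an adjusted p of up to 0.152, 8 of them leaving out 1 array. After doxorubicin Bcl2 read -0.31, 0.02 and -0.04 in Top2b-deleted samples, against -0.70, -0.07 and -1.25 in WT samples, which overlapped (0.56 ± 0.25, adjusted p = 0.195). No member passed there, where 8.18% of all genes did (4.53% higher and 3.64% lower); 2 members and 4957 genes had an unadjusted p under 0.05.

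**Figure D5:**
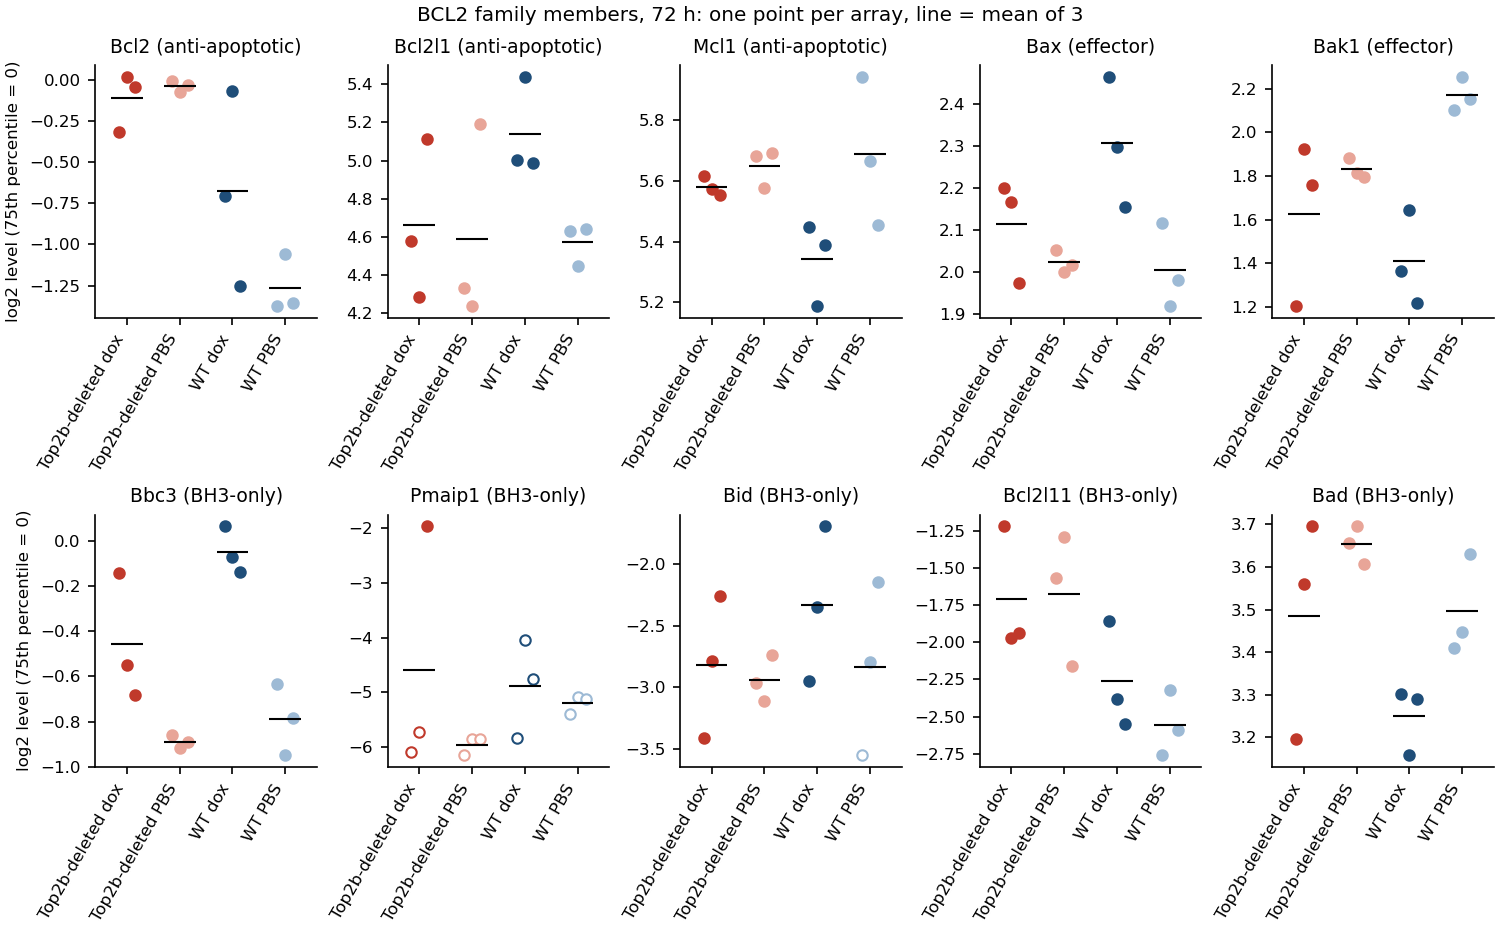
Level of each member on every array of 72 h (y axis, log2, 75th percentile of the array at 0) by group (x axis); points are arrays, lines are means of 3, and open points were not well above background. Bcl2 lies near 0 on all 6 Top2b-deleted arrays, and Bak1 lies below 1.7 on the 3 WT doxorubicin arrays and above 2.0 on the 3 WT PBS arrays.

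Across the 24 arrays, with the mean of each time subtracted, levels of Bax and Bbc3 had a Pearson correlation of 0.94, Bax and Bcl2l1 one of 0.82, and Bax and Bcl2 one of -0.47. These are descriptions, since the arrays share groups and slides. Among 18262 genes kept at both times, the profiles most like that of Bax were Kifc1 and Zfp688 (0.95 each), like Bcl2l1 Trp53inp1 (0.91) and Cdk19 (0.90), and like Mcl1 Manbal (0.87). Bbc3 was nearest to Hist1h3d (0.95) among named genes, Bcl2l11 to Zmynd8 (0.82), Bid to Ednrb and Pgf (0.84 each), and Bcl2 to Tln1 (0.98) and Krt18 (0.95).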

How the data were processed

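Each array measured the Cy3-labelled RNA of 1 cardiomyocyte sample, with 3 arrays in each of 8 groups, grouped by title. Per the file headers, the authors made the deposited spot intensities with Feature Extraction version 10.7.3.1; the processed signal is used here, with flags for outlier spots and spots well above background. The deposited value table holds a ratio, the processed signal divided by its array's median, which a comparison with the scanner files showed. The deposited processed signal was taken to log2, and each array's 75th percentile was subtracted.

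Control spots were left out, outlier spots were set to missing, and spots of a probe were averaged. To be kept at a time, a probe had to be well above background in every array of 1 or more groups; the brightest such probe stood for its gene. The 75th percentile of processed signal was 146 to 282, the share of spots well above background was 42.9% to 52.6%, none was saturated, and the number of arrays limits precision. For each time, limma 3.58.1 under R 4.3.3 was used to fit the 4 groups together (lmFit, contrasts.fit and eBayes, with 8 residual degrees of freedom), with Benjamini-Hochberg adjustment over all kept genes, 18751 at 16 h and 19672 at 72 h; a separate fit over probes adjusted over 25345 probes at 16 h. All p-values and intervals are two-sided, and adjusted p always means this limma fit. Scripts were tested on simulated data.

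A bound written as at least N-fold sets the bright group's mean against, per array, the dim probe's signal or, if higher, the dimmest signal that was well above background. Such a bound is for the processed signal and need not hold under another background correction. Alternatives covered background correction, scaling, the probe filter, probe choice, samples in the fit, the variance prior, slide, replicate number, Y-linked transcripts, single arrays and the genotype label. All members were named whatever their values. Other pathway genes named are among the 4 smallest adjusted p of their list past the threshold, and similar genes are the 2 with the highest correlation; some genes that these rules name are not reported. The members and lists were chosen with earlier results of these data known. Sequences came from the array files and RefSeq. No test was made between times, which were on different slides.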

Additional observations from a re-analysis of the deposited data

Results flagged for a closer look

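At 16 h the response to doxorubicin differed between the genotypes for 4 members, beside 11.4% of all genes, by limma's test of the difference itself, in each case lower in Top2b-deleted than in WT samples. The differences of the log2 responses were -1.50 for Bcl2l1, -1.72 for Bax, -2.68 for Bbc3 and -5.04 for Pmaip1. Pmaip1 was kept only through WT doxorubicin and was not well above background in the other 3 groups, so its value is no fold and its call adds no support; with normexp it was -1.87 (adjusted p = 0.110). For Bcl2l1, Bax and Bbc3 no doxorubicin reading of a Top2b-deleted sample reached the lowest WT doxorubicin reading, and 38.8% of all genes did not overlap in that comparison. The 3 Top2b-deleted doxorubicin arrays were on another slide than the WT arrays. With slide as a block Bax and Bbc3 passed and Bcl2l1 and Pmaip1 did not, beside 1.99% of all genes.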

How the results depend on the processing

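The 19 called member results were each recomputed under the alternatives, 517 recomputations in all: 439 stayed past the threshold, 78 did not, and 0 reversed. The alternatives share arrays and are not independent. The totals include the calls of Pmaip1, which was kept only through WT doxorubicin, so its part of them adds no support. The counts of members called moved as follows; the cause was not tested unless the setting itself tests fewer samples or genes. With the genotype taken from the characteristic, 0 members passed in WT doxorubicin against PBS, in either genotype comparison or in the difference of responses at 16 h, beside 0% of all genes in each. For Top2b-deleted against WT in PBS at 16 h, normexp gave 2 members (13.8% of all genes), only the 2 groups compared 3 (27.4%) and eBayes with trend 2 (14.1%). Y-linked transcripts as a covariate gave 2 (9.52%), against 1 (12.5%) in the main fit. With slide as a block, Top2b-deleted against WT after doxorubicin at 16 h had 1 member (2.15% of all genes) and the difference of responses 2 (1.99%), against 31.3% and 11.4% of all genes without the block. For WT doxorubicin against PBS at 72 h, the count of 1 became 0 with no filter on dim probes, with only the 2 groups compared, on slide 1 alone, with Y-linked transcripts as a covariate and on arrays without them. It became 2 with probes well above background on all 12 arrays, one fit over 24 arrays, eBayes with trend, slide as a block and the second Bcl2l1 probe. Bcl2 in PBS at 72 h was lost (0 members) with no filter (0.795% of all genes), on slide 1 alone (3.11%) and on arrays without Y-linked transcripts (1.28%).

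Leaving out each array in turn gave 4 to 7 members in WT doxorubicin against PBS at 16 h, 1 to 3 for the genotypes in PBS, 5 to 8 for the genotypes after doxorubicin and 3 to 5 for the difference of responses. With all arrays the shares of all genes passing were 27.8%, 12.5%, 31.3% and 11.4%, in that order. At 72 h leaving out each array gave 0 to 2, 0 to 1 and 0 to 1 for the first 3 of these, with shares of 2.69%, 2.15% and 8.18% over all arrays. It gave 0 to 0 for the difference of responses at 72 h and for Top2b-deleted doxorubicin against PBS at either time. Where 1 sample was left in a group, it was assumed to vary like the others.

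The replicate numbers were checked for pairing: same-numbered samples of different groups correlated above 0.1 in 6 of 18 pairs at 16 h and 16 of 18 at 72 h, and the labels name no shared litter or day, so they were not taken as pairs. As a hint from the data, 3 of 12 samples at 16 h and 9 of 12 at 72 h correlated best with their own number in every other group. With the replicate block, WT doxorubicin against PBS at 72 h had 2 members (16.7% of all genes, against 2.69%) and Top2b-deleted against WT after doxorubicin at 72 h had 1 (19.8%, against 8.18%).

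The second probes and the fit on arrays whose genotype labels agree were chosen after seeing the data. On those agreeing arrays 4 members passed in WT doxorubicin against PBS at 16 h; Mcl1 (0.41, adjusted p = 0.0625) and Bcl2l11 (1.11, adjusted p = 0.0597) did not.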
